A study of Mus musculus with 20 samples.

Results

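The 9 genes described here encode inhibitory and exhaustion-linked receptors of T cells: Pdcd1 (PD-1), Lag3, Havcr2 (TIM-3), Tigit, Ctla4, Cd160, Btla, Entpd1 (CD39) and Cd101. They were chosen by symbol from the 23992 gene symbols of the deposited tables, each represented by its longest listed transcript. The rule itself uses no measured value, but the genes were proposed with earlier results of these data known. All 9 passed the filter on low counts in both experiments. The libraries came from splenic CD8+ T cells of wild-type C57BL/6J mice, 6 to 8 weeks old, that had been enriched by negative selection. Every group, controls included, had first been activated for 48 hours by anti-CD3 on the plate (2 µg/mL) and anti-CD28 in solution (1 µg/mL) and rested overnight. For the next 24 hours they received the native murine cytokine IL-21 (mIL-21), a protein designed from scratch to mimic it (21h10), or no cytokine (unstimulated). Experiment 1 held unstimulated cells and either cytokine at 100 pM and 1 nM, and experiment 2 had separate unstimulated cells and either cytokine at 10 nM and 100 nM. The 5 groups in an experiment were in duplicate (n = 2 libraries each, 20 in all). Doses above 1 nM were in the second experiment alone, so dose and experiment cannot be told apart between experiments. The study's methods describe independent replicates prepared from different tissue or donors. The labels list the duplicates as separate samples without naming mice or cultures, so which libraries share a source is not known and the p-values measure the spread between these libraries.

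Inhibitory receptors are switched on in T cells by antigen-receptor signalling, and they restrain the activated cell when a ligand on a neighbouring cell engages them. Many of them recruit phosphatases to the membrane through short tyrosine motifs, while Ctla4 also competes with Cd28 for shared ligands and Entpd1 degrades extracellular ATP. High levels of several of them on one cell mark chronically stimulated, exhausted CD8+ T cells, but effector cells carry them as well. IL-21, made mainly by CD4+ T cells, signals through IL-21R and the common gamma chain to STAT proteins, chiefly STAT3.

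The genes lie on 6 chromosomes of the mouse genome (GRCm38). Ctla4 is at chr1:60909025-60915832 on the plus strand and Pdcd1 at chr1:94038305-94052553 on the minus strand. Cd160 (chr3:96798763-96829351) and Cd101 (chr3:100992189-101029553) are both on the minus strand of chromosome 3. Lag3 is at chr6:124904359-124912434 (minus) and Havcr2 at chr11:46454931-46481255 (plus). On chromosome 16, Tigit is at chr16:43626137-43665125 (minus) and Btla at chr16:45223705-45252895 (plus), and Entpd1 is at chr19:40612366-40741602 (plus). Cd160 was the one member whose exons overlap those of another gene in the annotation, with 68 of 2642 exonic bases shared with Pdzk1 on the opposite strand. Whether the authors' counting used strand is not given in the sources used here, so reads from those bases cannot be assigned to either gene. Exact runs of 50 bases that also occur in other genes made up 38 of the 870 distinct runs of Tigit, 18 of 2060 for Lag3, 14 of 2714 for Havcr2 and 19 of 2639 for Cd160, and none for the other 5 genes.

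The deposited tables list both forms of an alternative exon for Ctla4 and Cd160, and the exons are shown because the reads they hold are described further on. The Ctla4 exon (chr1:60913219-60913328, plus strand, 110 bases, all coding) encodes the membrane-spanning part of CTLA-4, and the transcript without it is the soluble form. The Cd160 exon (chr3:96802277-96802408, minus strand, 132 bases) is also coding throughout. Both are read from the GRCm38 reference, 5′ to 3′.
Ctla4 exon: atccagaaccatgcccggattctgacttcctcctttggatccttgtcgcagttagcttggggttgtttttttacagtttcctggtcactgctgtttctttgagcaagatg
Cd160 exon: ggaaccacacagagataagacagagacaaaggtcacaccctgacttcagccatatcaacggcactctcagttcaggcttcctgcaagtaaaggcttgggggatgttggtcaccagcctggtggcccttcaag

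Because IL-21 acts through STAT proteins, promoter windows from RefSeq (GRCm38, 250 bases before to 50 bases after a gene start) were searched for the STAT-type GAS motif TTCNNNGAA and for the AP-1 motif TGANTCA, whose letters read the same on either strand. Of the 9 genes, 8 matched the table with 10 windows, and Lag3 did not match. The GAS letters were in 1 of these 10 windows, a Cd160 window, and in 8.3% of all 32851 windows. The AP-1 letters were in 1 of the 10, that of Havcr2, and in 7.81% of all windows. The 250 bases before this Cd160 start (chr3:96814522-96814771, minus strand) are shown because Cd160 had the widest gap between the cytokines, with the match in capitals at position -234.
Cd160 promoter: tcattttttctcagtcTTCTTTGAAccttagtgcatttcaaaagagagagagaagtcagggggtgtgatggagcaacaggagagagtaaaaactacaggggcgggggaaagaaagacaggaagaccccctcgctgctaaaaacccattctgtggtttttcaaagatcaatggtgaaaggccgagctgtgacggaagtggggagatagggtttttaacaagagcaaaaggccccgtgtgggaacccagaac

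Reads on genes came to 36824740 to 94070730 per library in experiment 1 and 27072917 to 43300094 in experiment 2, and a member had at most 37518 reads in a library. The spread between libraries was larger in experiment 2, with a biological coefficient of variation of 8.8% against 4.32% in experiment 1, so that smaller differences could pass the test in experiment 1. The CD8 T cell markers summed to between 1667 and 2838 RPKM. Several members are also expressed by regulatory T cells and myeloid cells, so their markers are given by group. The 4 CD4 and regulatory T cell markers summed to 5.95 to 15.7 RPKM and were lowest in the unstimulated cells of both experiments (6.75 and 6.95 RPKM in experiment 1 and 5.95 and 7.05 RPKM in experiment 2). Foxp3 was at 0.00844 to 1.03 RPKM and Cd4 at 0.277 to 1.30 RPKM, so most of each sum came from Zbtb7b and Cd40lg, the other genes of that list. The myeloid list of 5 genes ran from 0.22 to 23.1 RPKM, nearly all of it Itgam, which activated T cells also express, and it moved with treatment. In experiment 1 this list summed to 0.22 and 0.313 RPKM in unstimulated cells, 3.49 and 3.21 RPKM with 100 pM mIL-21, 11.4 to 12.4 RPKM over 100 pM 21h10 and 1 nM mIL-21, and 17.3 and 16.3 RPKM with 1 nM 21h10. Lag3, Havcr2, Tigit and Entpd1 also had their lowest mean in unstimulated cells, the next with 100 pM mIL-21 and their highest with 1 nM 21h10. The other members did not follow this order. In experiment 2 it was 0.946 and 0.798 RPKM in unstimulated cells, 21.5 to 23.1 RPKM over both doses of mIL-21 and 10 nM 21h10, and 9.15 and 11.3 RPKM with 100 nM 21h10. The Btla mean with 100 nM 21h10 likewise lay between those of unstimulated cells and of the other treated groups. Entpd1 (15.6 RPKM), Havcr2 (64.0 RPKM) and Tigit (41.6 RPKM) instead had their highest means of experiment 2 in that group. Fcgr1 was listed at 0 in all 20 libraries and Csf1r stayed at or below 0.0184 RPKM. Summed B cell markers ran from 4.56 to 11.9, NK cell markers from 7.92 to 18.8 and dendritic cell markers from 0.368 to 2.16 RPKM. NK cell markers in experiment 1 summed to 8.17 and 7.92 RPKM without cytokine and 17.7 and 18.8 RPKM with 100 pM mIL-21. With 1 nM 21h10 they were 12.5 and 12.6 RPKM. B cell markers in these groups were 8.66 and 8.57, 11.1 and 11.9, and 5.15 and 5.04 RPKM. In the remaining groups of experiment 1, NK cell markers were 14.5 and 14.9 RPKM with 100 pM 21h10, and 15.7 and 13.5 RPKM with 1 nM mIL-21. B cell markers there were 8.43 and 7.43, and 8.01 and 8.00 RPKM. Cd160 and Cd101 were also highest with 100 pM mIL-21. NK cell markers in experiment 2 were 10.9 and 13.1 RPKM without cytokine, and 13.05 to 16.2 RPKM over both doses of mIL-21 and 10 nM 21h10. With 100 nM 21h10 they were 14.2 and 16.8 RPKM. Cd160 and Cd101 were lowest in that last group. The part of other cells in the members' levels was not tested. In bulk libraries, fewer cells that express a gene and less RNA per cell cannot be told apart.

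Levels below are TMM-scaled RPKM, the reads of a gene per kilobase of transcript, scaled to the reads on all genes by the TMM method within each experiment. They can be compared between genes, but the scaling was done separately in each experiment. Differences are log2 fold changes fitted by edgeR (quasi-likelihood test), the p-values were adjusted by the Benjamini-Hochberg method over all genes tested, and a gene was called at an adjusted p under 0.05. Values are given as duplicate 1 and duplicate 2. The plot of levels in every library shows the 9 genes together.

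**Figure D1:**
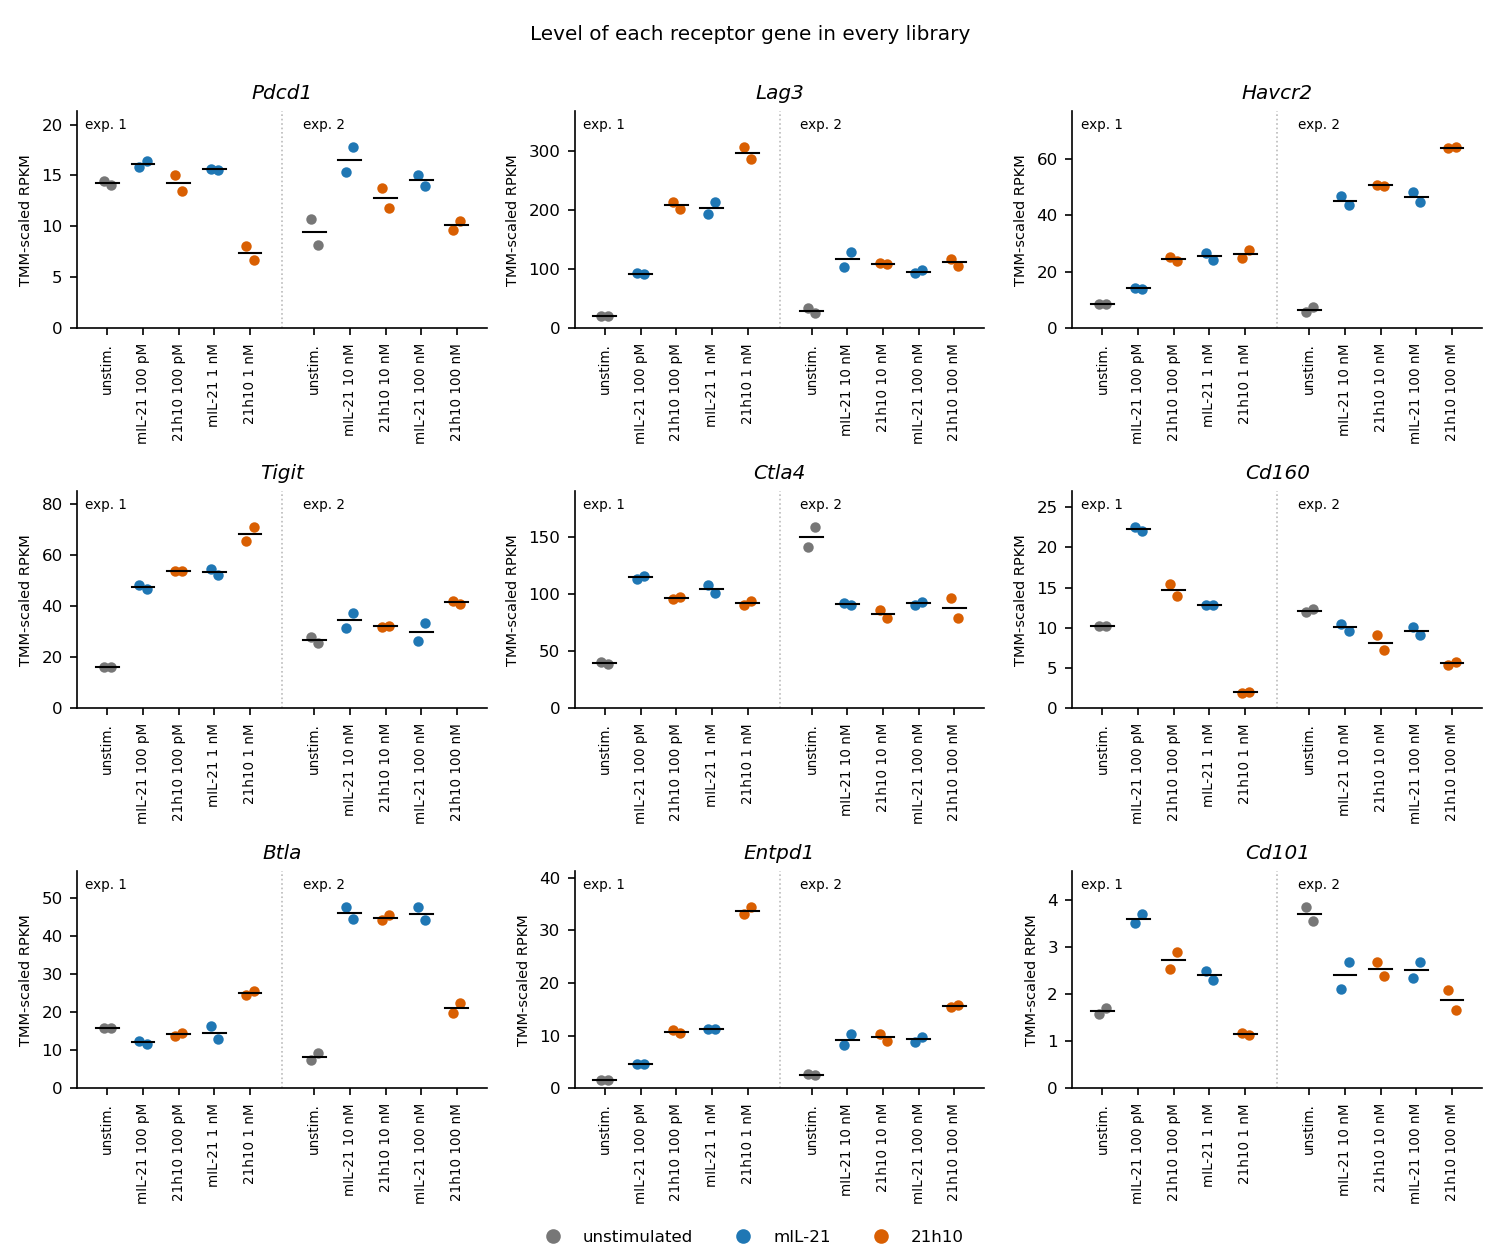
TMM-scaled RPKM (y axis, linear from 0, 1 panel for each gene) in each of the 20 libraries, by group (x axis), with experiment 1 left and experiment 2 right of the dotted line. Points are libraries and horizontal lines are the means of duplicates. Lag3, Tigit and Entpd1 were highest in 21h10 1 nM cells, where Cd160 (1.97 RPKM), Pdcd1 (7.39 RPKM) and Cd101 (1.16 RPKM) were at their lowest means.

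Lag3, a receptor for MHC class II and fibrinogen-like protein, reached the highest level of the 9 genes, with 1 nM 21h10, and was higher at the higher dose of either cytokine in experiment 1. Its level was 20.2 and 20.6 RPKM in unstimulated cells, 94.1 and 91.3 with 100 pM mIL-21, 214 and 201.8 with 100 pM 21h10, 192.7 and 213 with 1 nM mIL-21 and 306 and 286 with 1 nM 21h10. Every treated library was above the unstimulated ones, and the 21h10 1 nM libraries were above all others. Against unstimulated cells, Lag3 rose 4.55-fold with 100 pM mIL-21 (log2 fold change 2.19, SE 0.0585, adjusted p = 1.46e-15) and 14.5-fold with 1 nM 21h10 (log2 fold change 3.86, SE 0.0614, adjusted p = 9.91e-19). In the order of means, 100 pM 21h10 and 1 nM mIL-21 did not pass the test against each other (0.035, adjusted p = 0.885), whereas the other neighbours did. In experiment 2, Lag3 read 34.6 and 25.5 RPKM without cytokine, 104 and 129 with 10 nM mIL-21, 110.1 and 109 with 10 nM 21h10, and 93.2 and 97.9 with 100 nM mIL-21, 118 and 106 with 100 nM 21h10. The treated libraries were again all above the unstimulated ones (log2 fold changes 1.67 to 1.95, largest adjusted p = 2.82e-08), but no neighbouring pair of treated groups passed the test.

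Entpd1, the ectonucleotidase that starts the conversion of extracellular ATP to adenosine, had the largest rise of the 9. In experiment 1 its level was 1.51 and 1.60 RPKM without cytokine, 4.64 and 4.71 with 100 pM mIL-21, 11.03 and 10.4 with 100 pM 21h10, and 11.2 and 11.2 with 1 nM mIL-21, 33.1 and 34.4 with 1 nM 21h10. No 2 groups overlapped, but 100 pM 21h10 and 1 nM mIL-21 did not pass the test against each other (-0.063, adjusted p = 0.757). The 21h10 1 nM libraries stood far above the rest. Entpd1 rose 21.8-fold with 1 nM 21h10 (log2 fold change 4.44, SE 0.0622, adjusted p = 2.25e-19) and 7.23-fold with 1 nM mIL-21 (log2 fold change 2.85, SE 0.0628, adjusted p = 7.72e-17). Experiment 2 gave 2.64 and 2.59 RPKM in unstimulated cells, 8.17 and 10.3 with 10 nM mIL-21, 10.4 and 9.08 with 10 nM 21h10, and 8.88 and 9.81 with 100 nM mIL-21, 15.4 and 15.8 with 100 nM 21h10. The 21h10 100 nM cells were highest and differed from the next group, 10 nM 21h10 (log2 fold change 0.68, SE 0.114, adjusted p = 0.00186), while 10 nM 21h10 and both mIL-21 doses overlapped. That call was lost without 21h10 10 nM duplicate 2 (log2 fold change 0.58, adjusted p = 0.0557).

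Havcr2 encodes TIM-3, which binds galectin-9 among other ligands. In experiment 1 it measured 8.78 and 8.73 RPKM without cytokine, 14.2 and 14.1 with 100 pM mIL-21, 25.1 and 24.0 with 100 pM 21h10, 26.5 and 24.3 with 1 nM mIL-21 and 24.96 and 27.7 with 1 nM 21h10. Unstimulated cells were lowest and mIL-21 100 pM cells next, and the other 3 groups overlapped, and no test between neighbours among these 3 was passed. The rise over unstimulated cells was 1.62-fold for 100 pM mIL-21 (log2 fold change 0.69, SE 0.0637, adjusted p = 1.95e-08) and 3.01-fold for 1 nM 21h10 (log2 fold change 1.59, SE 0.0623, adjusted p = 1.01e-13). The values of experiment 2 were 5.79 and 7.42 RPKM without cytokine, 46.7 and 43.5 with 10 nM mIL-21, 50.7 and 50.4 with 10 nM 21h10, and 48.2 and 44.6 with 100 nM mIL-21, 63.9 and 64.0 with 100 nM 21h10. Havcr2 rose 6.83-fold with 10 nM mIL-21 and 9.70-fold with 100 nM 21h10 (log2 fold change 3.28, SE 0.109, adjusted p = 1.03e-12), the largest response of a member in that experiment. The 21h10 100 nM libraries were above all others, although 21h10 did not pass the test between 100 nM and 10 nM (0.34, adjusted p = 0.0541). DESeq2 (0.35, adjusted p = 0.012), no filter (0.33, adjusted p = 0.0148) and the compared groups alone (0.34, adjusted p = 0.00118) called that difference.

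Tigit, a receptor for the poliovirus receptor Pvr and for nectins, rose at every dose of experiment 1. Libraries held 16.2 and 16.2 RPKM without cytokine, 48.4 and 47.0 with 100 pM mIL-21, 54.0 and 53.7 with 100 pM 21h10, and 54.8 and 52.4 with 1 nM mIL-21, 65.7 and 71.0 with 1 nM 21h10. The treated libraries were all above the unstimulated ones, and 1 nM 21h10 was above every other group. The rise was 2.94-fold with 100 pM mIL-21 (log2 fold change 1.56, SE 0.0590, adjusted p = 1.17e-13) and 4.21-fold with 1 nM 21h10 (log2 fold change 2.08, SE 0.0584, adjusted p = 1.17e-15). In experiment 2 the gene stood at 27.9 and 25.6 RPKM without cytokine, 31.5 and 37.6 with 10 nM mIL-21, 32.001 and 32.2 with 10 nM 21h10, and 26.6 and 33.4 with 100 nM mIL-21, 42.2 and 41.0 with 100 nM 21h10. With the groups placed in order of their means, no neighbouring pair passed the test. Against unstimulated cells Tigit rose with 100 nM 21h10 (log2 fold change 0.64, SE 0.120, adjusted p = 0.000421) and with 10 nM mIL-21 (log2 fold change 0.37, SE 0.119, adjusted p = 0.0188). The first was lost with limma on RPKM (0.32, adjusted p = 0.0513). The second was lost without unstimulated duplicate 2 (adjusted p = 0.0763) or mIL-21 10 nM duplicate 2 (log2 fold change 0.24, adjusted p = 0.222), and it lay at 0.19 with library sizes from mapped reads (adjusted p = 0.241). The log2 fold changes with 10 nM 21h10 (0.26, adjusted p = 0.0803) and 100 nM mIL-21 (0.16, adjusted p = 0.288) did not pass.

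Ctla4, the high-affinity receptor for Cd80 and Cd86, moved in opposite directions in the experiments. Without cytokine it was at 41.0 and 38.7 RPKM in experiment 1 and at 141.1 and 159 RPKM in experiment 2. The treated groups of experiment 1 gave 114 and 116 RPKM with 100 pM mIL-21, 95.8 and 97.5 with 100 pM 21h10, 108 and 101 with 1 nM mIL-21 and 90.9 and 94.1 with 1 nM 21h10. All were above the unstimulated cells of that experiment, and 100 pM mIL-21 was highest. Ctla4 rose between 2.32-fold (1 nM 21h10, log2 fold change 1.21, SE 0.0499, adjusted p = 2.01e-13) and 2.88-fold (100 pM mIL-21, log2 fold change 1.52, SE 0.04996, adjusted p = 1.84e-14). Treated cells of experiment 2 held 92.7 and 90.5 RPKM with mIL-21 and 86.3 and 79.3 with 10 nM 21h10, and 90.5 and 93.2 with 100 nM mIL-21, 96.8 and 79.5 with 100 nM 21h10. These were all below the unstimulated cells of experiment 2, and the 4 treated groups did not pass the test between neighbours. The fall was between -0.71 (100 nM mIL-21, SE 0.0957, adjusted p = 1.99e-05) and -0.86 on the log2 scale (10 nM 21h10, SE 0.0960, adjusted p = 2.46e-06). On scales set separately in each experiment, treated libraries ranged from 90.9 to 115.9 RPKM in experiment 1 and from 79.3 to 96.8 RPKM in experiment 2, so the unstimulated levels lay below that range in the former and above it in the latter.

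Pdcd1, the PD-1 receptor for Cd274 and Pdcd1lg2, was lowest with 1 nM 21h10. Its level in experiment 1 was 14.5 and 14.1 RPKM without cytokine, 15.8 and 16.4 with 100 pM mIL-21, 15.005 and 13.5 with 100 pM 21h10, 15.6 and 15.6 with 1 nM mIL-21 and 8.08 and 6.70 with 1 nM 21h10. The 21h10 1 nM libraries were lower than all others, and the remaining groups stood close together. Pdcd1 fell 1.95-fold below unstimulated cells with 1 nM 21h10 (log2 fold change -0.96, SE 0.0815, adjusted p = 5.17e-09). Its rise with 100 pM mIL-21 (log2 fold change 0.17, SE 0.0755, adjusted p = 0.0479) was lost without any one of the 4 libraries compared (adjusted p = 0.0864 to 0.205). Experiment 2 gave 10.7 and 8.23 RPKM without cytokine, 15.3 and 17.8 with 10 nM mIL-21, 13.8 and 11.9 with 10 nM 21h10, and 15.1 and 13.9 with 100 nM mIL-21, 9.67 and 10.6 with 100 nM 21h10. Here mIL-21 raised Pdcd1 at 10 nM (log2 fold change 0.80, SE 0.134, adjusted p = 0.000151) and at 100 nM (log2 fold change 0.61, SE 0.135, adjusted p = 0.00159), where limma on RPKM gave 0.36 and no call (adjusted p = 0.0629). The 21h10 100 nM libraries overlapped the unstimulated ones (0.089, adjusted p = 0.611, 95% interval -0.20 to 0.38). A rise with 10 nM 21h10 (log2 fold change 0.43, SE 0.136, adjusted p = 0.0152) was lost without unstimulated duplicate 2 (0.25, adjusted p = 0.141) or 21h10 10 nM duplicate 1 (0.32, adjusted p = 0.155), and with library sizes from mapped reads (0.16, adjusted p = 0.397).

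Cd160 and Btla both bind Tnfrsf14 (HVEM), and their levels went different ways. Cd160 in experiment 1 was 10.2 and 10.2 RPKM without cytokine, 22.5 and 22.0 with 100 pM mIL-21, 15.4 and 13.9 with 100 pM 21h10, 12.8 and 12.8 with 1 nM mIL-21 and 1.91 and 2.04 with 1 nM 21h10. The mIL-21 100 pM libraries were highest, and the 21h10 1 nM libraries, with 177 and 267 reads, were below every other library of that experiment. Cd160 rose 2.17-fold with 100 pM mIL-21 (log2 fold change 1.12, SE 0.0610, adjusted p = 1.45e-11) and fell 5.16-fold with 1 nM 21h10 (log2 fold change -2.37, SE 0.0787, adjusted p = 1.08e-14). In experiment 2 it was 11.9 and 12.4 RPKM without cytokine, 10.5 and 9.66 with 10 nM mIL-21, 9.08 and 7.21 with 10 nM 21h10, and 10.13 and 9.08 with 100 nM mIL-21, 5.44 and 5.77 with 100 nM 21h10. All treated libraries were below the unstimulated ones. Cd160 fell 2.17-fold with 100 nM 21h10 (log2 fold change -1.12, SE 0.125, adjusted p = 2.54e-06) and also with 10 nM 21h10 (log2 fold change -0.58, SE 0.121, adjusted p = 0.00095). With mIL-21, the fall at 100 nM (log2 fold change -0.34, SE 0.120, adjusted p = 0.0294) was lost without unstimulated duplicate 2 (adjusted p = 0.075) or mIL-21 100 nM duplicate 2 (adjusted p = 0.217), and the value at 10 nM did not pass (-0.27, adjusted p = 0.0773). It passed with library sizes from mapped reads (-0.45, adjusted p = 0.0086) and with limma on RPKM (-0.40, adjusted p = 0.0132).

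Btla in experiment 1 was 16.0 and 15.9 RPKM without cytokine, 12.5 and 11.7 with 100 pM mIL-21, 13.8 and 14.6 with 100 pM 21h10, 16.4 and 12.9 with 1 nM mIL-21 and 24.4 and 25.7 with 1 nM 21h10. The 21h10 1 nM libraries were above all others and the mIL-21 100 pM libraries were below all others. Btla fell with 100 pM mIL-21 (log2 fold change -0.40, SE 0.0815, adjusted p = 0.000263) and rose 1.57-fold with 1 nM 21h10 (log2 fold change 0.65, SE 0.0787, adjusted p = 5.74e-07). The value with 1 nM mIL-21 (-0.12, adjusted p = 0.166) passed without mIL-21 1 nM duplicate 1 (-0.30, adjusted p = 0.00061). In experiment 2, Btla was 7.47 and 9.20 RPKM without cytokine, 47.6 and 44.5 with 10 nM mIL-21, 44.2 and 45.5 with 10 nM 21h10, and 47.6 and 44.1 with 100 nM mIL-21, 19.8 and 22.3 with 100 nM 21h10. The 21h10 100 nM libraries lay between the unstimulated ones and the other 3 treated groups, which overlapped. The rise over unstimulated cells was 5.53-fold with 10 nM mIL-21 (log2 fold change 2.47, SE 0.105, adjusted p = 1.94e-11) and 2.53-fold with 100 nM 21h10 (log2 fold change 1.34, SE 0.104, adjusted p = 3.74e-08).

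Cd101, an immunoglobulin-like receptor that marks terminally exhausted CD8+ T cells in mice, had at most 872 reads in a library, fewer than any other member at its highest. Experiment 1 gave 1.58 and 1.71 RPKM without cytokine, 3.51 and 3.70 with 100 pM mIL-21, 2.54 and 2.90 with 100 pM 21h10, 2.50 and 2.30 with 1 nM mIL-21 and 1.17 and 1.14 with 1 nM 21h10. The order of groups was that of Cd160 in this experiment, with 100 pM mIL-21 highest and 1 nM 21h10 below the unstimulated cells. Cd101 rose 2.201-fold with 100 pM mIL-21 (log2 fold change 1.14, SE 0.0948, adjusted p = 4.95e-09) and fell 1.42-fold with 1 nM 21h10 (log2 fold change -0.51, SE 0.112, adjusted p = 0.000515). In experiment 2 its level was 3.85 and 3.56 RPKM without cytokine, 2.12 and 2.68 with 10 nM mIL-21, 2.70 and 2.40 with 10 nM 21h10, and 2.35 and 2.69 with 100 nM mIL-21, 2.10 and 1.66 with 100 nM 21h10. Unstimulated cells were highest, and the fall with 100 nM 21h10 was 1.96-fold (log2 fold change -0.97, SE 0.172, adjusted p = 0.000247). The falls in the other 3 groups (-0.62, -0.54 and -0.56 for 10 nM mIL-21, 10 nM 21h10 and 100 nM mIL-21) each lost their call without 1 or 2 libraries. These were mIL-21 10 nM duplicate 1 (adjusted p = 0.0836), unstimulated duplicate 1 (adjusted p = 0.0606) or 21h10 10 nM duplicate 2 (adjusted p = 0.115), and unstimulated duplicate 1 (adjusted p = 0.0564) or mIL-21 100 nM duplicate 1 (adjusted p = 0.111).

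**Figure D2:**
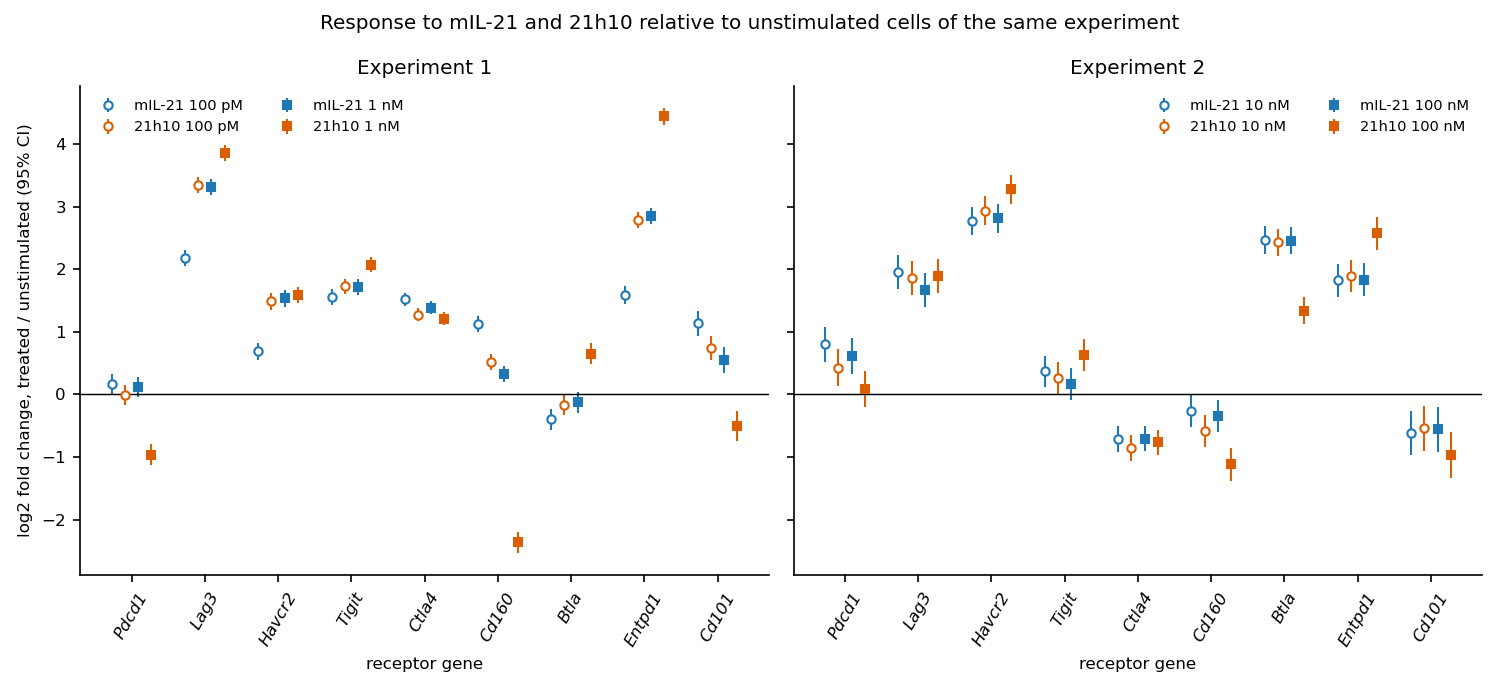
Log2 fold change of each receptor gene (x axis) against the unstimulated cells of the same experiment (y axis), for mIL-21 (blue) and 21h10 (orange), with open circles for the lower and filled squares for the higher dose and bars for 95% confidence intervals. Lag3, Havcr2, Entpd1 and Tigit lie above 0 in all 8 treated groups, while Ctla4 lies above 0 in experiment 1 and below 0 in experiment 2. Tigit did not pass the test with 10 nM 21h10 or 100 nM mIL-21.

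Of the 9 genes, most differed between treated and unstimulated cells, as did many of all genes tested. In experiment 1, 100 pM mIL-21 changed 9 of 9 members (8 higher and 1 lower, where 77.7% of the 13974 genes tested were called, 38.3% higher and 39.4% lower). For 100 pM 21h10 this was 7 members, all higher (81.6% of genes called, 40.2% higher and 41.3% lower), for 1 nM mIL-21 7 members, all higher (80.1%, 39.9% higher and 40.3% lower), and for 1 nM 21h10 9 members, 6 higher and 3 lower (80.3%, 38.3% higher and 42.1% lower). The median log2 fold change of the members was between 1.14 and 1.39 in these comparisons, against -0.038 to 0 for all genes tested. In experiment 2, 8 of 9 members were called with each treatment: 6 higher and 2 lower with 10 nM mIL-21 (46.2% of 13772 genes called, 22.5% higher and 23.7% lower), and 5 higher and 3 lower with 10 nM 21h10 (50.1%, 25.2% higher and 24.9% lower), with 100 nM mIL-21 (46.2%, 22.5% higher and 23.7% lower) and with 100 nM 21h10 (50.8%, 25% higher and 25.8% lower). Members' medians were 0.43 to 0.80, against -0.017 to -0.0023 for all genes. Lag3, Havcr2 and Entpd1 rose with every treatment in both experiments. Library sizes from mapped reads in place of TMM lowered the median of all genes by 0.18 to 0.30 on the log2 scale in the comparisons with the unstimulated cells of experiment 2, so the members' changes there are relative to that choice.

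At matched concentration, the question was whether the designed protein acts on these genes as the native cytokine does. At 100 pM, 21h10 gave more Lag3, Havcr2 and Entpd1 and less Cd160, Cd101 and Ctla4 than mIL-21. Entpd1 was 2.29-fold higher (log2 fold change 1.20, SE 0.0569, adjusted p = 5.57e-11), Lag3 2.24-fold higher (log2 fold change 1.17, SE 0.0550, adjusted p = 5e-11) and Havcr2 1.74-fold higher (log2 fold change 0.79, SE 0.0610, adjusted p = 2.28e-08). Cd160 was 1.52-fold lower (log2 fold change -0.60, SE 0.0599, adjusted p = 5.05e-07), Cd101 1.31-fold lower (log2 fold change -0.39, SE 0.0899, adjusted p = 0.00224) and Ctla4 1.19-fold lower (log2 fold change -0.25, SE 0.0484, adjusted p = 0.00064). In all, 8 of the 9 genes were called, 5 higher and 3 lower, where 38.6% of genes were called (19.6% higher and 19% lower). The members' median log2 fold change was 0.18, against -0.0067 over all genes tested. The calls for Tigit (0.17, adjusted p = 0.0177) and Btla (0.23, adjusted p = 0.0313) were lost without any one of the 4 libraries compared, with adjusted p of 0.0642 to 0.136 for Tigit and 0.0543 to 0.201 for Btla. Library sizes from mapped reads moved the median of all genes by -0.10 here, and neither Tigit (0.073, adjusted p = 0.429) nor Btla (0.13, adjusted p = 0.22) passed with them, whereas Pdcd1 did (-0.28, adjusted p = 0.00586, against -0.18 and an adjusted p of 0.0703 with TMM).

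**Figure D3:**
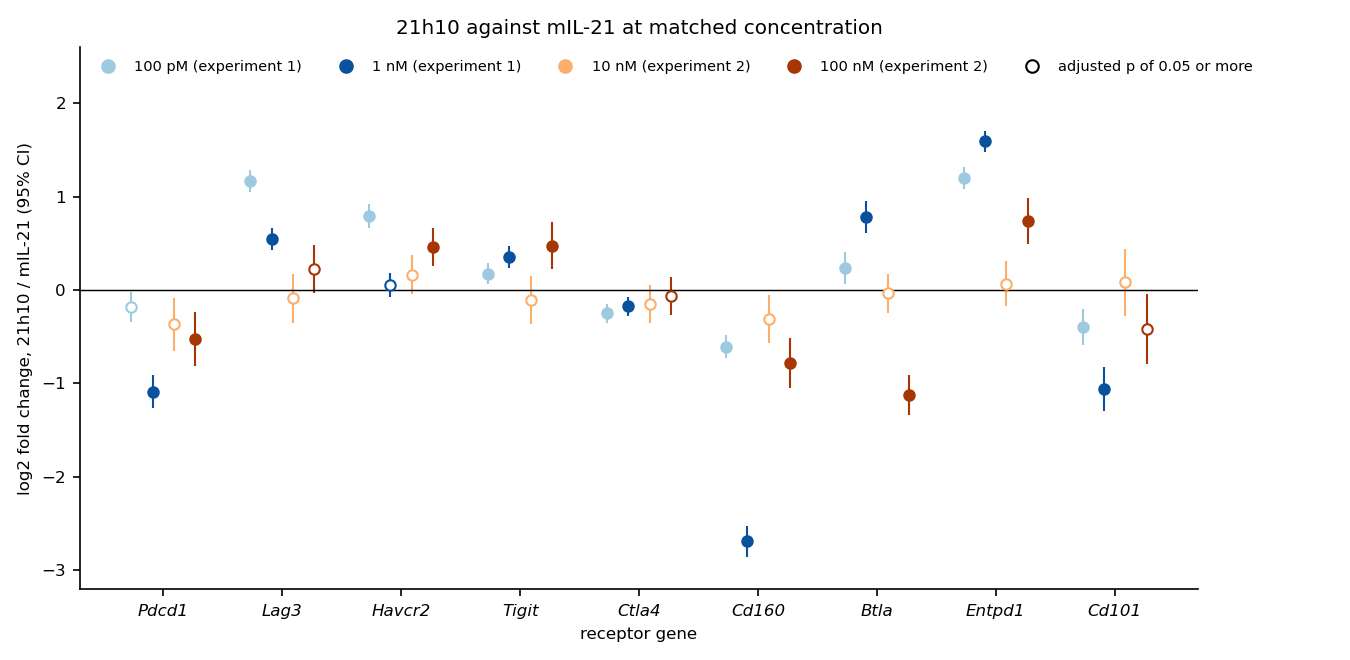
Difference between 21h10 and mIL-21 as a log2 fold change (y axis) for each receptor gene (x axis) at the 4 matched concentrations, with 95% confidence intervals and open symbols for an adjusted p of 0.05 or more. Cd160 at 1 nM (-2.69) and Entpd1 at 1 nM (1.59) lie farthest from 0, and all 9 symbols at 10 nM are open.

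At 1 nM, the gap widened for Cd160, Entpd1, Pdcd1, Cd101 and Btla. With 21h10, Cd160 was 6.45-fold lower (log2 fold change -2.69, SE 0.0795, adjusted p = 1.41e-13), Pdcd1 2.12-fold lower (log2 fold change -1.09, SE 0.0834, adjusted p = 1.68e-08) and Cd101 2.08-fold lower (log2 fold change -1.06, SE 0.113, adjusted p = 9.92e-07). Entpd1 was 3.01-fold higher (log2 fold change 1.59, SE 0.0525, adjusted p = 5.13e-13), Btla 1.71-fold higher (log2 fold change 0.78, SE 0.0810, adjusted p = 7.07e-07), Lag3 1.46-fold higher (log2 fold change 0.54, SE 0.0540, adjusted p = 3.87e-07) and Tigit 1.28-fold higher (log2 fold change 0.35, SE 0.0550, adjusted p = 6.81e-05). Havcr2 overlapped between the cytokines, with a 95% interval of -0.072 to 0.18 for its log2 fold change. Here 8 of 9 genes were called, 4 higher and 4 lower, where 37.7% of genes were called (19.6% higher and 18.1% lower), with a median of 0.054 for the members and -0.0097 over all genes. The eighth call, Ctla4 (log2 fold change -0.18, SE 0.0489, adjusted p = 0.0089), was lost without mIL-21 1 nM duplicate 1 (-0.11, adjusted p = 0.119).

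Between the lower and the higher dose of experiment 1, the effect of 21h10 relative to mIL-21 itself differed for 7 of 9 members, where 18.4% of genes were called. Values here are differences between 2 log2 fold changes. The effect moved down for Cd160 (log2 fold change -2.09, SE 0.101, adjusted p = 6.17e-10), Pdcd1 (log2 fold change -0.91, SE 0.113, adjusted p = 2.71e-05), Havcr2 (log2 fold change -0.74, SE 0.0854, adjusted p = 1.26e-05), Cd101 (log2 fold change -0.66, SE 0.145, adjusted p = 0.00387) and Lag3 (log2 fold change -0.62, SE 0.0766, adjusted p = 2.54e-05). It moved up for Btla (log2 fold change 0.54, SE 0.115, adjusted p = 0.00302) and Entpd1 (log2 fold change 0.39, SE 0.0772, adjusted p = 0.00169). For Lag3 and Havcr2 the cytokines were thus closer at 1 nM than at 100 pM, and for Cd160 and Entpd1 they were farther apart. With limma on RPKM, Cd101 was at -0.26 and lost its call (adjusted p = 0.104). The differences for Tigit (0.18, adjusted p = 0.129) and Ctla4 (0.072, adjusted p = 0.528) did not pass. Tigit passed without 21h10 1 nM duplicate 1 (0.23, adjusted p = 0.0302).

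Across doses, 100 pM 21h10 and 1 nM mIL-21 did not pass the test against each other for any of the 9 genes, where 0.737% of genes were called. Their log2 fold changes ran from -0.13 for Pdcd1 to 0.19 for Cd160, with adjusted p of 0.253 or more. The 95% intervals of all 9 lay between -0.29 (Pdcd1) and 0.39 (Cd101), so these duplicates leave room for differences of up to that size. By edgeR, 2 members had an unadjusted p under 0.05, Ctla4 and Cd160, and DESeq2 and limma on RPKM also called 0 members. Cd160 was at 15.4 and 13.9 RPKM with 100 pM 21h10 against 12.8 and 12.8 RPKM with 1 nM mIL-21, and the groups did not overlap. They did not overlap for Pdcd1, Ctla4, Entpd1 and Cd101 either. The share of all genes without overlap is not given here, and with duplicates this is not a test.

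Raising the dose within a cytokine moved the members in both directions. From 100 pM to 1 nM, mIL-21 changed 8 of 9 members (34.5% of genes called), raising Entpd1 (log2 fold change 1.26, SE 0.0581, adjusted p = 2.7e-11), Lag3 (log2 fold change 1.13, SE 0.0551, adjusted p = 5.39e-11) and Havcr2 (log2 fold change 0.85, SE 0.0619, adjusted p = 1.12e-08) and lowering Cd160 (log2 fold change -0.80, SE 0.0619, adjusted p = 2.45e-08) and Cd101 (log2 fold change -0.59, SE 0.0966, adjusted p = 0.000146). Its smaller changes in Btla (0.27), Tigit (0.17) and Ctla4 (-0.13) were each lost in 2 or 3 of the 4 fits with 1 library left out. In these fits Btla had an adjusted p of 0.135 without mIL-21 100 pM duplicate 2 and of 0.367 without mIL-21 1 nM duplicate 1 (log2 fold change 0.089). Tigit had 0.0881 to 0.173 without either 100 pM library or mIL-21 1 nM duplicate 1, and Ctla4 had 0.125 to 0.278 without either 100 pM library or mIL-21 1 nM duplicate 2. With library sizes from mapped reads, Btla (0.16, adjusted p = 0.142) and Tigit (0.052, adjusted p = 0.599) lost their calls as well. The number of members called fell to 5 without mIL-21 100 pM duplicate 2. Over the same step, 21h10 changed 7 of 9 members (39.2% of genes called). It raised Entpd1 (log2 fold change 1.65, SE 0.0516, adjusted p = 1.2e-13), Btla (log2 fold change 0.82, SE 0.0792, adjusted p = 2.38e-07), Lag3 (log2 fold change 0.51, SE 0.0538, adjusted p = 6.76e-07) and Tigit (log2 fold change 0.34, SE 0.0538, adjusted p = 5.99e-05), and it lowered Cd160 (log2 fold change -2.88, SE 0.0775, adjusted p = 2.29e-14), Cd101 (log2 fold change -1.25, SE 0.106, adjusted p = 4.61e-08) and Pdcd1 (log2 fold change -0.95, SE 0.0817, adjusted p = 5e-08). Havcr2 (0.11, adjusted p = 0.173) passed without 21h10 1 nM duplicate 1 (0.18, adjusted p = 0.0191).

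At 10 nM, none of the 9 genes was called between 21h10 and mIL-21 by edgeR's quasi-likelihood test, where 1 of 13772 genes was called (0.00726%) and 1207 had an unadjusted p under 0.05. Log2 fold changes ran from -0.37 (Pdcd1, 95% interval -0.65 to -0.086) to 0.17 (Havcr2, -0.041 to 0.37). Pdcd1 and Cd160 were the 2 members with an unadjusted p under 0.05, and DESeq2 and limma on RPKM also called 0 members here. Nor did the step from 10 nM to 100 nM of mIL-21 change any member, where 0% of genes were called and 361 had an unadjusted p under 0.05, 1 member (Lag3) among them. DESeq2 and limma called 0 members there too. The widest interval in that comparison was that of Cd101, from -0.30 to 0.43.

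At 100 nM, the cytokines differed again for 6 of 9 members, where 8.53% of genes were called (4.02% higher and 4.52% lower). With 21h10, Btla was 2.18-fold lower (log2 fold change -1.12, SE 0.09999, adjusted p = 3.17e-06) and Cd160 1.72-fold lower (log2 fold change -0.78, SE 0.126, adjusted p = 0.000987), while Entpd1 was 1.67-fold higher (log2 fold change 0.74, SE 0.114, adjusted p = 0.000688). These 3 calls held in each of the 4 fits with 1 library left out. The other 3 were Pdcd1 (log2 fold change -0.52, SE 0.136, adjusted p = 0.0262), Havcr2 (log2 fold change 0.46, SE 0.0971, adjusted p = 0.00717) and Tigit (log2 fold change 0.47, SE 0.120, adjusted p = 0.0224). Pdcd1 lost its call without any one of the 4 libraries (adjusted p = 0.0613 to 0.19). Havcr2 lost it without mIL-21 100 nM duplicate 2, 21h10 100 nM duplicate 1 or 21h10 100 nM duplicate 2 (adjusted p = 0.0587 to 0.0884). Tigit lost it without mIL-21 100 nM duplicate 1 (0.31, adjusted p = 0.316) or either 21h10 100 nM library (adjusted p = 0.116 and 0.132), and with library sizes from mapped reads (0.40, adjusted p = 0.0669). Lag3 (0.22, adjusted p = 0.287), Ctla4 (-0.059, adjusted p = 0.761) and Cd101 (-0.42, adjusted p = 0.163) did not pass.

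From 10 nM to 100 nM, 21h10 changed 3 of 9 members, where 5.33% of genes were called (1.88% higher and 3.45% lower). Btla fell 2.13-fold (log2 fold change -1.09, SE 0.1001, adjusted p = 5.37e-06), Cd160 fell 1.45-fold (log2 fold change -0.54, SE 0.127, adjusted p = 0.02) and Entpd1 rose 1.60-fold (log2 fold change 0.68, SE 0.114, adjusted p = 0.00186). Cd160 lost its call without 21h10 10 nM duplicate 1 (-0.37, adjusted p = 0.259) or either 100 nM library (adjusted p = 0.0957 and 0.147), and Entpd1 without 21h10 10 nM duplicate 2 (adjusted p = 0.0557). Tigit (0.37, adjusted p = 0.0919) was called with no filter (0.36, adjusted p = 0.0487) and with the compared groups alone (0.38, adjusted p = 0.00946). The effect of 21h10 relative to mIL-21 passed edgeR's test between these doses for 1 member, Btla (log2 fold change -1.09, SE 0.139, adjusted p = 0.000627), where 0.922% of genes were called. For Entpd1 this difference was 0.67 (adjusted p = 0.0676), and it passed without mIL-21 10 nM duplicate 1 (0.82, adjusted p = 0.0226), with DESeq2 (0.68, adjusted p = 0.0145), with no filter (0.65, adjusted p = 0.00643) and with the compared groups alone (0.67, adjusted p = 0.0256).

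Btla thus stood on opposite sides at 1 nM and at 100 nM. It was higher with 1 nM 21h10 (24.4 and 25.7 RPKM against 16.4 and 12.9 RPKM for mIL-21) and lower with 100 nM 21h10 (19.8 and 22.3 RPKM against 47.6 and 44.1 RPKM). Cd160 and Pdcd1 were lower with 21h10 at both of these doses, and Entpd1 and Tigit were higher at both. The 100 nM calls of Pdcd1 and Tigit were lost when single libraries were left out, as given above. Limma on RPKM did not call them either (-0.54, adjusted p = 0.0593 for Pdcd1 and 0.39, adjusted p = 0.1 for Tigit). Since the doses belong to different experiments, no test was made between them.

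In a fit of all 20 libraries, the mean response of the 4 treated groups to cytokine differed between the experiments for 9 of 9 members, where 64.7% of 14530 genes were called (31.2% higher and 33.5% lower in experiment 2). The response in experiment 2 was higher than in experiment 1 for Btla (log2 fold change 2.12, SE 0.114, adjusted p = 8.69e-13), Havcr2 (log2 fold change 1.56, SE 0.102, adjusted p = 1.83e-11) and Pdcd1 (log2 fold change 0.59, SE 0.129, adjusted p = 0.000407). It was lower for Ctla4 (log2 fold change -2.17, SE 0.0923, adjusted p = 2.5e-14), Tigit (log2 fold change -1.47, SE 0.107, adjusted p = 1.03e-10), Lag3 (log2 fold change -1.39, SE 0.122, adjusted p = 2.12e-09), Cd101 (log2 fold change -1.21, SE 0.151, adjusted p = 4.13e-07), Entpd1 (log2 fold change -0.94, SE 0.116, adjusted p = 3.09e-07) and Cd160 (log2 fold change -0.53, SE 0.105, adjusted p = 0.000131). For Ctla4, every treated group was above the unstimulated cells in experiment 1 and below them in experiment 2. The dose range, the unstimulated cells and the experiment all changed together, so they cannot be told apart.

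The make-up of the 9 genes together also changed. Their summed level was 130.0 and 127.8 RPKM in unstimulated cells of experiment 1 and 556.2 and 549.1 RPKM with 1 nM 21h10. Lag3 made up 15.6% and 16.1% of the sum in the former and 55.02% and 52.14% in the latter, and Ctla4 made up 31.5% and 30.3% in the former and 16.3% and 17.1% in the latter. In experiment 2, Ctla4 made up 57.4% and 62.6% of the sum in unstimulated cells and 22.9% to 26.7% in the treated libraries. No test was made on these shares, which are not independent of the levels above.

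**Figure D4:**
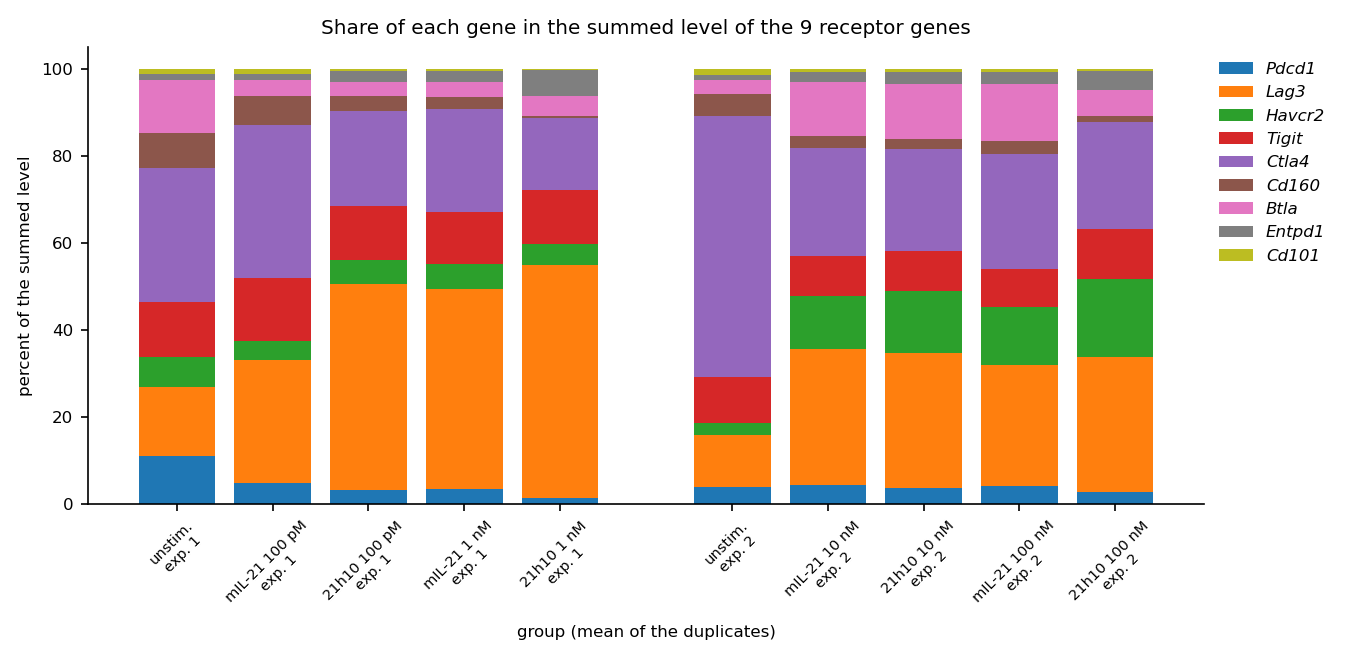
Percent of the summed TMM-scaled RPKM of the 9 genes (y axis) taken by each gene, as stacked bars for the mean of duplicates of each group (x axis). In the single libraries Lag3 takes 52.1% or more with 1 nM 21h10 and Ctla4 57.4% or more in the unstimulated cells of experiment 2.

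For the exons printed above, the reads assigned to the longer transcript and not to the shorter one were taken as a share of the longer transcript's reads. This share is a difference of counts and does not give the proportion of transcripts that keep the exon. It was below the exon's part of the transcript length for Ctla4 and above it for Cd160. In Ctla4, the exon is 5.69% of the transcript's length, and its share was 4.16% to 4.999% over the 10 libraries of experiment 1, lowest in mIL-21 1 nM duplicate 2 and highest in 21h10 100 pM duplicate 2. In experiment 2 the Ctla4 share was 4.49% and 3.74% in unstimulated cells, 3.33% to 4.52% in the 4 mIL-21 libraries and 2.52% to 3.46% in the 4 21h10 libraries. The lowest library, 21h10 10 nM duplicate 2, had 120 of 4755 reads (Wilson 95% interval 2.11% to 3.01%), and the other library of that group had 162 of 4680 reads (2.97% to 4.02%). The ranges of the cytokines overlapped between 3.33% and 3.46%, and no test was made.

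In Cd160, the exon is 5.1% of the transcript's length and its share was 11.3% to 17.5% in experiment 1. The 21h10 1 nM libraries, in which the gene was lowest, had 31 of 177 reads (17.5%, Wilson 95% interval 12.6% to 23.8%) and 44 of 267 reads (16.5%, 12.5% to 21.4%) beside 15.4% and 16.6% in unstimulated cells. In experiment 2 the share was 15.7% and 16.7% in unstimulated cells, 13.7% to 17.1% with mIL-21 and 12.2% to 12.7% in the 4 21h10 libraries. Those 4 libraries were below all the others of that experiment, but their intervals (9.45% to 16.3% over the 4) reached into those of the mIL-21 libraries. Intervals cover counting error only. The Cd160 transcripts that differ by their first exon differed by at most 1 read in a library, so the choice of start cannot be read from these tables.

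**Figure D5:**
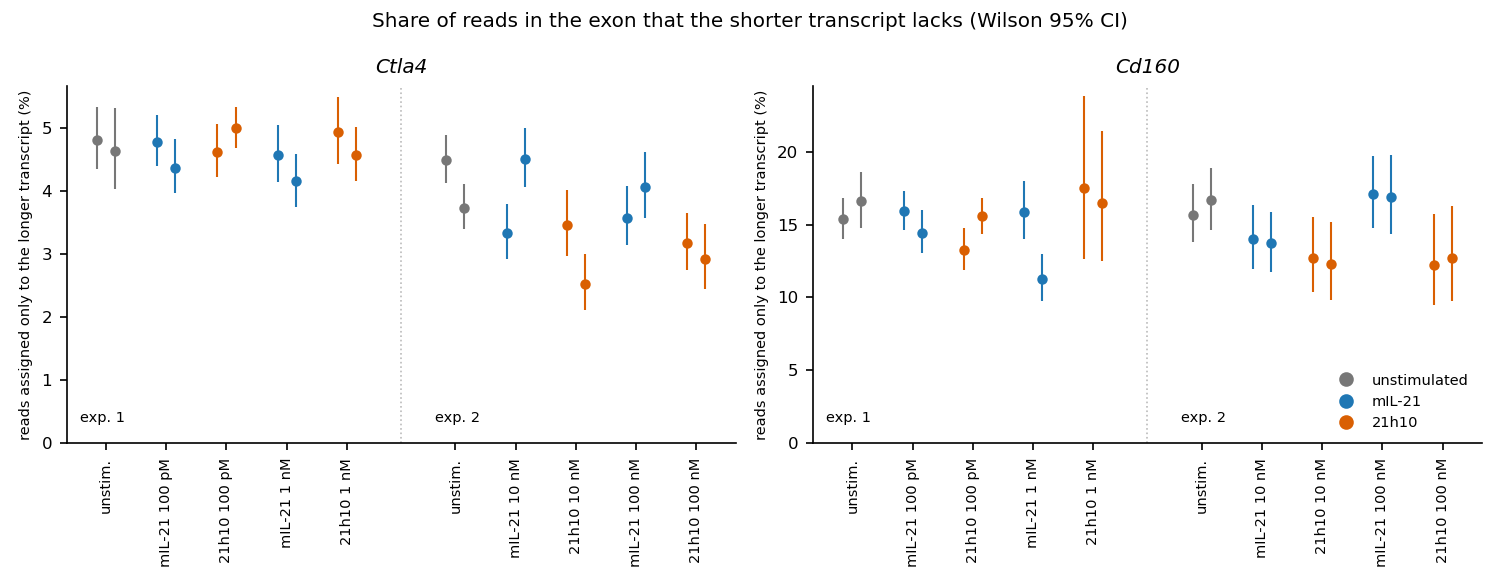
Reads assigned only to the longer transcript, as a percent of that transcript's reads (y axis, from 0), for Ctla4 (left) and Cd160 (right) in each library, by group (x axis), with Wilson 95% intervals. In experiment 2 the 21h10 libraries lie at 2.52% to 3.46% for Ctla4 and 12.2% to 12.7% for Cd160.

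The ligands of these receptors that T cells themselves express were tested as well. Of 11 ligand genes, 10 were tested. At 1 nM, 3 were higher with 21h10 and 1 lower, where 37.7% of all genes were called (19.6% higher and 18.1% lower). These were Cd274, the PD-L1 ligand of Pdcd1 (log2 fold change 0.49, SE 0.0553, adjusted p = 1.7e-06), Pvr, the ligand of Tigit (log2 fold change 0.47, SE 0.0586, adjusted p = 5.42e-06), Cd80, a ligand of Ctla4 (log2 fold change 0.26, SE 0.0858, adjusted p = 0.0225), and, lower, Lgals9, the galectin-9 ligand of Havcr2 (log2 fold change -0.42, SE 0.0513, adjusted p = 5.13e-06). Cd80 lost its call without mIL-21 1 nM duplicate 1 (adjusted p = 0.138) or 21h10 1 nM duplicate 2 (adjusted p = 0.211). At 100 nM, Tnfrsf14, the ligand of Btla and Cd160, was 12.2 and 10.9 RPKM with 21h10 and 20.1 and 17.9 RPKM with mIL-21 (log2 fold change -0.72, SE 0.132, adjusted p = 0.00277). It lost its call without mIL-21 100 nM duplicate 1 (adjusted p = 0.0526) or 21h10 100 nM duplicate 2 (adjusted p = 0.0516). Pdcd1lg2 was higher (log2 fold change 1.05, SE 0.245, adjusted p = 0.014) and Cd80 lower (log2 fold change -0.59, SE 0.148, adjusted p = 0.0214) at that dose. Cd80 lost its call without any one of the 4 libraries (adjusted p = 0.0572 to 0.18). Pdcd1lg2 lost it without mIL-21 100 nM duplicate 1 (adjusted p = 0.0753), mIL-21 100 nM duplicate 2 (adjusted p = 0.0971) or 21h10 100 nM duplicate 2 (adjusted p = 0.135), and with limma on RPKM (0.39, adjusted p = 0.0626).

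Of 7 related genes, receptors such as Cd226 and Icos and the ligands Tnfsf14 and Lta, 6 were tested. At 1 nM, the activating receptor Cd226, which competes with Tigit for Pvr, was lower with 21h10 than with mIL-21. Cd226 was at 17.99 and 19.7 RPKM with 21h10 against 46.9 and 39.0 RPKM with mIL-21 (log2 fold change -1.18, SE 0.0701, adjusted p = 6.25e-10). Cd96, another receptor of that family, was also lower with 21h10 than with mIL-21 (log2 fold change -0.92, SE 0.0536, adjusted p = 5e-10). Icos, a costimulatory receptor of the Cd28 family, was higher (log2 fold change 0.78, SE 0.0521, adjusted p = 2.78e-09), as was Tnfsf14, the LIGHT ligand of HVEM (log2 fold change 0.37, SE 0.0777, adjusted p = 0.00112). At 100 nM, Cd226 alone was called (log2 fold change -0.49, SE 0.0986, adjusted p = 0.00537), and it lost its call without mIL-21 100 nM duplicate 1 (adjusted p = 0.0818) or 21h10 100 nM duplicate 2 (adjusted p = 0.0566). Among 12 listed genes for signaling adaptors, phosphatases and related proteins, 1 was higher and 6 were lower with 1 nM 21h10 (37.7% of all genes called). Not all of these act below inhibitory receptors, so the counts do not measure inhibitory signaling. At 100 nM, where 8.53% of all genes were called, edgeR called 0, with 4 at an unadjusted p under 0.05. DESeq2 and limma on RPKM called 1 each at that dose. The lower ones included Sh2d2a (log2 fold change -1.11, SE 0.0447, adjusted p = 5.46e-12), Dok2 (log2 fold change -0.75, SE 0.0809, adjusted p = 1.16e-06), the SAP adaptor Sh2d1a (log2 fold change -0.59, SE 0.0528, adjusted p = 1.03e-07) and the kinase Csk (log2 fold change -0.30, SE 0.0581, adjusted p = 0.000538), which was -0.20 without 21h10 1 nM duplicate 2 (adjusted p = 0.00538).

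Inhibitory receptors outside the 9 were counted in the same way. Of 12 tested in experiment 1, between 10 and 12 were higher than in unstimulated cells in each treated group and 0 were lower, where 38.3% to 40.2% of all genes were higher. DESeq2 called 9 to 10 of this list and limma on RPKM 7 to 9, counted in either direction. Of 11 tested in experiment 2, between 6 and 9 were higher and 1, Cd5, was lower, where 22.5% to 25.2% of all genes were higher. Between the cytokines at 1 nM, 3 were higher with 21h10 and 3 lower (37.7% of all genes called). Lilrb4, an inhibitory receptor with tyrosine motifs, was 31.0 and 31.1 RPKM with 21h10 and 14.2 and 11.95 RPKM with 1 nM mIL-21 (log2 fold change 1.25, SE 0.0751, adjusted p = 7.6e-10), and 183 and 184 RPKM with 21h10 and 99.8 and 103 RPKM with mIL-21 at 100 nM (log2 fold change 0.86, SE 0.0825, adjusted p = 7.48e-06). Klrc1, the NKG2A chain, was higher with 1 nM 21h10 (log2 fold change 0.50, SE 0.0706, adjusted p = 2.13e-05) and lower at 100 nM (log2 fold change -0.66, SE 0.102, adjusted p = 0.000697), as Btla was. The gene 4632428N05Rik, an older symbol of Vsir (VISTA), was higher at 1 nM (log2 fold change 0.46, SE 0.0561, adjusted p = 5.1e-06) and not called at 100 nM (-0.22, adjusted p = 0.167). Cd300a was higher at 100 nM (log2 fold change 0.89, SE 0.210, adjusted p = 0.0147) and lost its call without mIL-21 100 nM duplicate 1 (0.65, adjusted p = 0.199) or 21h10 100 nM duplicate 2 (0.67, adjusted p = 0.196).

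Among 18 transcription factors linked to exhaustion, 9 were higher and 7 lower with 1 nM 21h10 (37.7% of all genes called), and 4 were higher and 1 lower at 100 nM (8.53% of all genes called). Irf4, which acts downstream of the antigen receptor, was higher at 1 nM (log2 fold change 0.90, SE 0.0486, adjusted p = 2.23e-10), and Id3, a factor of memory-like cells, was lower (log2 fold change -1.45, SE 0.215, adjusted p = 3.98e-05). Eomes, a T-box factor, was 5.65 and 5.58 RPKM with 21h10 and 9.43 and 9.45 RPKM with 1 nM mIL-21 (log2 fold change -0.75, SE 0.0585, adjusted p = 2.04e-08), but 57.5 and 66.9 RPKM with 21h10 and 11.9 and 12.9 RPKM with mIL-21 at 100 nM (log2 fold change 2.32, SE 0.102, adjusted p = 1.44e-09). Maf was higher at both doses (log2 fold change 0.92, SE 0.138, adjusted p = 4.8e-05 at 1 nM and log2 fold change 0.94, SE 0.238, adjusted p = 0.0219 at 100 nM), and the second call was lost without any one of the 4 libraries (adjusted p = 0.0606 to 0.142).

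Entpd1 belongs to a pathway that turns ATP into adenosine. Another 8 genes were listed for adenosine, most of them for its sensing, removal or transport and not for its production. Of these, 2 were higher and 4 lower with 1 nM 21h10 (37.7% of all genes called), and 3 higher and 1 lower at 100 nM (8.53% of all genes called). Nt5e (CD73), which completes the conversion that Entpd1 starts, was not called at 1 nM (0.13, adjusted p = 0.0966), except without mIL-21 1 nM duplicate 1 (0.18, adjusted p = 0.0496) or 21h10 1 nM duplicate 1 (0.17, adjusted p = 0.0338). It was 18.3 and 20.7 RPKM with 21h10 against 35.8 and 36.4 RPKM with 100 nM mIL-21 (log2 fold change -0.89, SE 0.0860, adjusted p = 8.14e-06). The adenosine receptor Adora2b was higher with 1 nM 21h10, at 4.63 and 4.25 RPKM against 0.638 and 0.622 RPKM (log2 fold change 2.81, SE 0.154, adjusted p = 2.53e-10). Its call at 100 nM (log2 fold change 1.04, SE 0.256, adjusted p = 0.019) was lost without any one of the 4 libraries (adjusted p = 0.0841 to 0.118). Adk, the kinase that removes adenosine, was lower at 1 nM (log2 fold change -0.43, SE 0.0703, adjusted p = 0.000115) and higher at 100 nM (log2 fold change 0.87, SE 0.110, adjusted p = 0.000116). Pde4b, a phosphodiesterase that ends cAMP signals, was higher at 1 nM (log2 fold change 0.64, SE 0.0511, adjusted p = 2.9e-08), and its call at 100 nM (log2 fold change 0.31, SE 0.0858, adjusted p = 0.0355) was lost without any one of the 4 libraries (adjusted p = 0.129 to 0.264).

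The genes whose pattern over the 20 libraries was most like each member's, by Pearson correlation of log2 CPM after subtraction of each experiment's mean among 11257 genes, were Crlf2 and Ston2 for Lag3 (both 0.99), F2r and Esm1 for Havcr2 (both 0.99), Mina and Setd7 for Btla (0.99 and 0.98) and Pde4b and Mcf2l for Entpd1 (both 0.99). For Ctla4 they were Pdk1 and Cdk19 (both 0.98), for Tigit Lamc1 and Entpd2 (both 0.98), for Cd160 Cd9 and Phf11d (0.97 and 0.96), for Cd101 Gucy2e and Hip1r (both 0.95) and for Pdcd1 Psd4 (0.94). Among the members themselves, the closest pairs were Lag3 with Entpd1 (0.95), Lag3 with Tigit (0.91), Cd160 with Cd101 (0.87) and Tigit with Entpd1 (0.87). These correlations are a description of libraries that share groups and unstimulated controls, and no test was made.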

How the data were processed

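RNA of each library was sequenced on an Illumina NovaSeq instrument after preparation with a KAPA mRNA HyperPrep kit, and the reads were aligned by the authors with TopHat 2.0.11 to the mouse genome (mm10). The submitters' processing notes also name Bowtie2 2.2.6, SAMtools 0.1.8 and bedtools 2.25.0. The deposited tables give read counts and RPKM for each transcript, where RPKM was calculated by the authors per kilobase of exon and scaled to mapped reads. The counting tool, its use of strand and the annotation version are not given in the sources used here.

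From the deposited counts, the longest listed transcript was kept for each symbol. Genes were filtered with filterByExpr (minimum count 10), scaled by TMM and tested with edgeR 4.0.16 in R 4.3.3 (glmQLFit and glmQLFTest), with the 10 libraries of an experiment in 1 fit and no block. All 20 libraries entered a fit only for the response between experiments. P-values were adjusted by the Benjamini-Hochberg method over all genes tested. The scripts were tested on simulated data. The labels' WT was read as mIL-21 and h10 as 21h10. Alternatives used DESeq2 1.42.0, limma 3.58.1 on log2(RPKM + 1), no filter, library sizes from mapped reads, the compared groups alone, the most-read transcript, a replicate block and the omission of each library.

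All 9 members were described. For each list of related genes up to 4 genes with the largest absolute log2 difference between the cytokines at 1 nM or 100 nM were named in full, and other genes were named where a count was small, after their values were seen. The members and lists were chosen with earlier results of these data known. The like genes of each member were the 2 with the highest Pearson correlation of log2 CPM over the 20 libraries, of which 1 is not reported here. Positions and overlaps came from GRCm38.p6 with GENCODE M21 and RefSeq.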

Additional observations from a re-analysis of the deposited data

Results flagged for a closer look

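The effect of 21h10 relative to mIL-21 differed between 1 nM and 100 pM, by an interaction term of the edgeR model, by -0.91 on the log2 scale for Pdcd1, -0.62 for Lag3, -0.74 for Havcr2, -2.09 for Cd160, 0.54 for Btla, 0.39 for Entpd1 and -0.66 for Cd101. Between 100 nM and 10 nM it differed by -1.09 for Btla.

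The mean response to cytokine differed between experiment 2 and experiment 1, by the same kind of term in the fit of all 20 libraries, by 0.59 for Pdcd1, -1.39 for Lag3, 1.56 for Havcr2, -1.47 for Tigit, -2.17 for Ctla4, -0.53 for Cd160, 2.12 for Btla, -0.94 for Entpd1 and -1.21 for Cd101. The experiments used different doses and their own unstimulated cells, so dose and experiment cannot be told apart here. Groups of duplicates are too small for a test of outlying libraries.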

How the results depend on the processing

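No member's log2 fold change turned its sign past the threshold under any alternative run. The number of members called moved by more than 1, or by over 1.5 times, in 5 comparisons. For mIL-21 at 1 nM against 100 pM, edgeR with all libraries called 8, DESeq2, the block and the compared groups alone 7, and limma, no filter and mapped-read library sizes 6, and it was 5 to 7 with 1 library left out. For 21h10 against mIL-21 at 100 nM it was 6 by edgeR, 7 with the compared groups alone, 5 with mapped-read sizes, 4 by limma, 3 to 4 with 1 library left out, and 3 without either 21h10 100 nM duplicate. At 100 pM it was 8 by edgeR, 9 with the compared groups alone, 7 with mapped-read sizes and by limma, and 6 in each of the 4 fits with 1 library left out. For 21h10 at 100 nM against 10 nM it was 3 by edgeR, 5 with no filter, 5 with the compared groups alone, 4 by DESeq2, 2 by limma and 2 in each fit with 1 library left out. For the dose difference of experiment 2 it was 1 by edgeR, 2 with no filter, with DESeq2 and with the compared groups alone, and 1 to 2 with 1 library left out. The causes were not tested. Same-numbered duplicates did not deviate together throughout (correlations -0.062 to 0.029 in experiment 1 and -0.17 to 0.23 in experiment 2), so the numbers were not taken to pair libraries. In experiment 2 the unstimulated, mIL-21 100 nM and 21h10 100 nM groups did deviate together (0.13 to 0.23). With a replicate block, 179 of 180 member results kept their call, and Ctla4 for mIL-21 at 1 nM against 100 pM did not (-0.13, adjusted p = 0.0568). Library sizes from mapped reads moved the median of all genes by -0.30 to -0.18 against the unstimulated cells of experiment 2, by -0.12 for mIL-21 at 1 nM against 100 pM, and by -0.17 between experiments. With them 170 member results kept their call. DESeq2 kept 176, limma 166 and the most-read transcript 180 of 180. With 1 library left out, 886 member results kept their call, 46 lost it and 4 gained it. By Spearman's rho in place of Pearson's r, both like genes remained for Btla, 1 of 2 for Pdcd1, Ctla4 and Entpd1, and 0 for the others. Spread between duplicates was wider in experiment 2, which limits what could be called there.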
